A study of Mus musculus with 15 samples.

Results

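MiR-365 is a microRNA (miRNA), a short RNA that lowers the output of mRNAs carrying sites complementary to its seed. It was the 1 miRNA followed here of the 567 mouse miRNAs on the array, and its members are the spots that carry the name mmu-miR-365. It was picked from these arrays for a low level in day 14 allografts and higher levels on days 8 and 100, so its levels on those days describe the choice and carry no test. Livers of male mice were grafted, with B10.BR donors and B10.D2 recipients for the allografts, and total RNA of 15 grafts was labelled with Cy3 and hybridized to Agilent mouse miRNA arrays. Each of 5 groups held 3 mice: allogeneic grafts taken on days 5, 8, 14 or 100 after transplantation, and syngeneic grafts taken on day 5. All 15 arrays are labelled with the allogeneic strain pair, so the syngeneic ones were taken from their titles, and their own strain is not given in the sources used here. The allografts were made without immunosuppressive drugs per the study's text, and the age of the mice is not given in the labels. The comparisons ask how the level in the graft follows the days after grafting, against a syngeneic graft that went through the same surgery without an allogeneic barrier. Syngeneic grafts were taken on day 5 only. Against them, the allografts of days 8, 14 and 100 differ in time since surgery as well as in the barrier, and these cannot be told apart.

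A miRNA is cut from a hairpin in a longer transcript, and 1 arm of the hairpin usually supplies most of the mature product. The seed of the mature strand, bases 2 to 8 from its 5′ end, sets most of its target choice. The mouse has 2 genes that give the same mature miR-365, and each lies beside a gene of the miR-193 family, so miR-193 is the natural neighbour to read beside it. MiR-365 has been described in several tissues, among them brown fat, where the miR-193b and miR-365 cluster was studied in fat cell differentiation. In the liver the most abundant miRNA is miR-122, which hepatocytes make, whereas miR-142 and miR-223 belong to blood cells.

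The following sequences are shown because the shared mature strand decides what the array can tell apart, and the neighbours' strands show that they do not share its seed. They were read from RefSeq on GRCm38.p6, are written 5′ to 3′, and have bases 2 to 8 in capitals.
mmu-miR-365-3p: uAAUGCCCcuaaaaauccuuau
mmu-miR-193a-3p: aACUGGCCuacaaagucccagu
mmu-miR-193b-3p: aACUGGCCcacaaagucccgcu
The array name miR-365 carries no arm suffix and was taken as the 3p strand, which held that name before arms were marked. Without probe sequences this could not be checked. Gene Mir365-1 gives this strand at chr16:13453895-13453916 and gene Mir365-2 gives the identical 22 bases at chr11:79726467-79726488, both on the plus strand, so a probe for the mature strand cannot tell the 2 genes apart. None of the other mature mouse miRNAs among 1679 names in the table shared the seed of miR-365-3p. MiR-193a-3p and miR-193b-3p shared their own seed and differed at 3 of 22 positions.

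On chromosome 16 the Mir365-1 hairpin (chr16:13453840-13453926) starts 4238 bases after the end of the Mir193b hairpin. Both hairpins lie within the spans of the noncoding RNA genes Gm32817 and Gm53058, with Mrtfb and Parn as the nearest protein-coding genes on either side. On chromosome 11 the Mir365-2 hairpin (chr11:79726400-79726511) starts 14365 bases after the Mir193a hairpin. That pair lies within no other gene of the annotation, between the protein-coding genes Rab11fip4 and Utp6. Whether a hairpin falls in an exon or an intron of its spanning gene was not read, since the table gives gene spans only.

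MiR-365 was measured by 2 probes, each printed as 10 spots, which gave 20 of the 11540 miRNA spots of an array. All 300 miR-365 spots of the 15 arrays were well above background, 8 of them were left out as outliers, and no spot was saturated. The summed signal of the 2 probes was between 48.8 and 249 intensity units, with a median of 116. The brighter probe, A_54_P4391, read 1.12 to 1.32 times the other probe, A_54_P4390, in the same array, so the probes kept nearly the same ratio on every array. Spots of 1 probe on 1 array varied by a coefficient of variation (CV) of 4.75% to 16.4%.

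**Figure D1:**
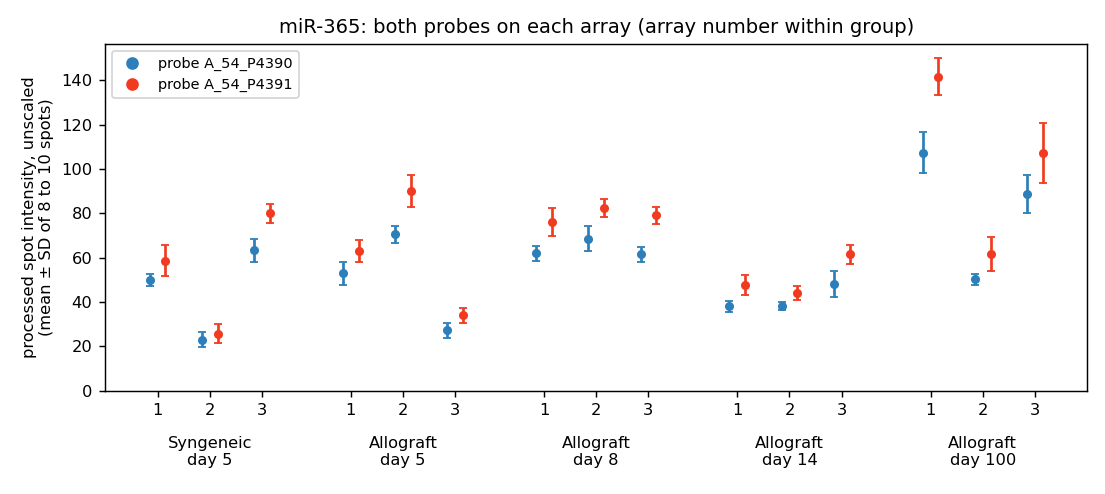
Processed intensity of the 2 miR-365 probes on each of the 15 arrays, before any scaling between arrays, as the mean ± SD of the spots kept. The probes rose and fell together from array to array, and A_54_P4391 was the brighter on all 15 arrays.

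Before scaling, the day 14 allografts gave summed signals of 85.6, 82.3 and 109. The day 8 allografts gave 138, 151 and 141, and the day 100 allografts gave 249, 112 and 196. All day 14 signals lay below those of the other two days, although replicate 2 of day 100 came close to replicate 3 of day 14. The syngeneic grafts gave 108, 48.8 and 143, and the day 5 allografts gave 116, 161 and 61.1. The highest array of these groups was more than double the lowest, as on day 100, and overall array brightness also differed: the 75th percentile used to scale an array was 395 on syngeneic replicate 2 and 457 on day 5 replicate 3, against up to 1018 on day 14 replicate 3.

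Each signal was therefore scaled by the 75th percentile of its own array, taken over the 52 miRNAs that every array detected, and put on the log2 scale, where 1 unit is a doubling. On this log2 scaled signal the day 14 allografts were at -3.26, -3.19 and -3.22, a mean of -3.22 ± 0.04 (SD, n = 3). Day 8 allografts were at -2.38, -2.37 and -2.56, a mean of -2.43 ± 0.11. Day 100 allografts were at -2.01, -2.20 and -1.98, a mean of -2.06 ± 0.12. Day 14 was the tightest and the lowest of the 5 groups, and all 3 of its arrays lay below every other array.

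Day 5 allografts were at -2.93, -2.56 and -2.90, a mean of -2.80 ± 0.21. The syngeneic grafts were at -2.25, -3.02 and -2.10, a mean of -2.46 ± 0.49. Syngeneic replicate 2 stood apart from its group, below all the day 5 allografts, and it was also the dimmest array. Day 100 replicate 1 was the noisiest, with an additive error of 13.1 intensity units in its file header against 2.67 to 3.66 on the others, and without it day 14 was 1.13 below day 100 on the log2 scale.

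**Figure D2:**
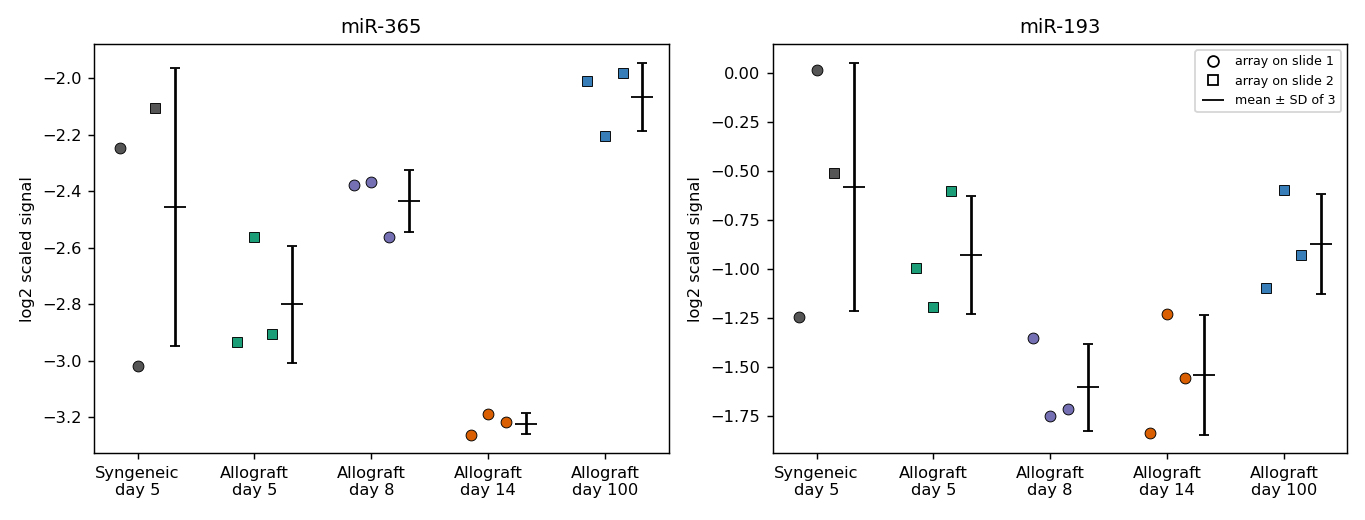
Log2 scaled signal of miR-365 (left) and of its neighbour miR-193 (right) on each array, by group, with circles for slide 1 and squares for slide 2 and the mean ± SD of 3 arrays beside the points. MiR-365 was lowest on day 14 at -3.22 and highest on day 100 at -2.06, whereas miR-193 was about as low on day 8 (-1.60) as on day 14 (-1.54).

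In order, the group means ran from day 14 through day 5 allografts, syngeneic grafts and day 8 to day 100. The step from day 14 to day 5 allografts was 0.42 on the log2 scale, against a pooled SD of 0.15, and their arrays did not overlap, with day 14 below day 5 in the same way for 22.3% of the 103 miRNAs tested. From the day 5 allografts to the syngeneic grafts the step was 0.34, and from these to day 8 it was 0.02, both within pooled SDs of 0.38 and 0.36. Neither of these steps exceeded the spread. The outer pair, day 8 and day 5 allografts, lay 0.37 apart and their arrays just missed overlapping (-2.561 against -2.562). Of the 103 miRNAs, 34% were apart in that direction, and these groups lay on different slides. The last step, from day 8 to day 100, was 0.37 against a pooled SD of 0.12, without overlap, as for 18.4% of miRNAs in that direction. Day 8 and day 100 shared no slide, and their order turned with slide in the fit, as given below.

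As a description of the days that chose it, miR-365 was 0.79 ± 0.21 (SE) lower on the log2 scale on day 14 than on day 8, a factor of 1.73. Against day 100 it was 1.16 ± 0.21 lower, a factor of 2.23. The arrays of day 14 did not overlap those of day 8 or of day 100. Such separation was common here: of the 103 miRNAs tested, 27.2% had all day 14 arrays below all day 8 arrays, and 25.2% had them below all day 100 arrays. In size, the difference between day 14 and day 8 was the most negative of the 103, and that between day 14 and day 100 was the third most negative (3 of 103), ranks that became 7 and 6 with a normexp background correction. Of the 103, 28 had their lowest group mean on day 14, and 19 had all day 14 arrays below all arrays of both day 8 and day 100, so miR-365 was 1 of 19 with that pattern.

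Only the day 5 allografts could be tested against the syngeneic grafts, since neither group took part in the choice. MiR-365 was 0.34 lower in the day 5 allografts, with an SE of 0.21 and a 95% interval from -0.79 to 0.10. That difference did not pass (adjusted p = 0.25, limma with Benjamini-Hochberg adjustment over 103 miRNAs), in a comparison where 25.2% of miRNAs were called. The call depended on 1 array: without syngeneic replicate 2 the difference was -0.62 with an adjusted p of 0.019. Within slide 2, which holds all 3 day 5 allografts and syngeneic replicate 3, it was -0.70 with an adjusted p of 0.12, and without scaling between arrays it turned to 0.20.

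Against the same syngeneic grafts, and again as a description, miR-365 was 0.77 lower on day 14, 0.02 higher on day 8 and 0.39 higher on day 100, each with an SE of 0.21. These comparisons share their control arrays, which were taken on day 5, so time since surgery and the allogeneic barrier cannot be told apart in them. Without syngeneic replicate 2 the 3 differences were -1.05, -0.26 and 0.11, so the small day 8 difference changed sign and that on day 100 shrank. Without scaling the day 14 difference from the syngeneic grafts was 0.01. Removing the scaling moved the miRNAs of an array alike, except for values set to the floor. The median of all 103 miRNAs was itself 0.71 higher on day 14 than in the syngeneic grafts. MiR-365 lay 0.70 below that median, against 0.84 below the median with scaling.

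The 15 arrays came from 2 slides, and slide and group were partly confounded. Slide 1 held syngeneic replicates 1 and 2 and all arrays of days 8 and 14, and slide 2 held syngeneic replicate 3 and all allografts of days 5 and 100. The drop of 0.79 from day 8 to day 14 was thus measured within 1 slide, where day 14 was also 0.59 below the 2 syngeneic arrays. Day 100 was 0.74 above day 5 allografts within slide 2, but only 0.04 above the single syngeneic array there. No slide held both day 14 and day 100. With slide as a term in the fit, which then rests on the syngeneic arrays alone to join the slides, day 14 was 0.63 ± 0.33 (SE) below day 100 in place of 1.16, and 0.11 above day 5 allografts in place of 0.42 below. In that fit day 8 was 0.20 above the syngeneic grafts and day 100 was 0.04 above them, so day 100 no longer lay above day 8. No slide held both of these days either. The orders of day 14 and day 5 allografts and of day 8 and day 100 therefore turned with the slide. That of day 14 and day 8 did not.

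**Figure D3:**
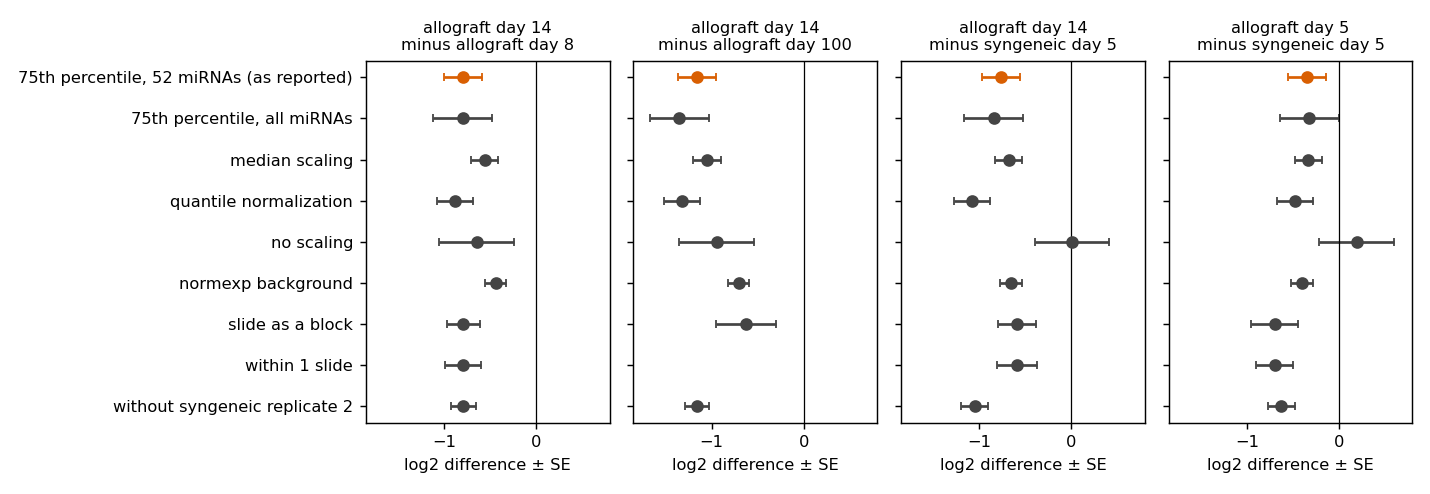
Log2 difference in miR-365 ± SE for 4 comparisons (columns) under 9 ways of scaling, background correction or choosing arrays (lines), with the reported setting in orange and a line at 0. Day 14 lay below day 8 under every setting shown, from -0.88 to -0.44, whereas day 14 against the syngeneic grafts reached 0.01 without scaling. No slide allowed day 14 and day 100 to be compared within it.

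Among the neighbours of the miR-365 genes, the array carried miR-193, miR-193b and miR-193*, which is the other arm of the miR-193 hairpin, and no probe for the other arm of miR-365. MiR-193, taken as miR-193a-3p by the older naming and likewise not checked against probe sequences, was detected on all 15 arrays. MiR-193b, the neighbour on chromosome 16, was detected on 0 of 15 arrays, and so was miR-193*. Only miR-193 was therefore tested.

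The syngeneic grafts gave log2 scaled signals of miR-193 of -1.24, 0.02 and -0.51, and the day 5 allografts gave -0.99, -1.19 and -0.60. On day 8 the values were -1.35, -1.75 and -1.71, on day 14 they were -1.84, -1.23 and -1.56, and on day 100 they were -1.09, -0.59 and -0.93. The syngeneic arrays spread over more than the whole range between the group means, and replicate 2, which was low in miR-365, was the highest in miR-193.

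MiR-193 was 1.03 ± 0.29 (SE) lower on day 8 than in the syngeneic grafts (limma adjusted p = 0.013, in a comparison that called 17.5% of miRNAs lower). On day 14 it was 0.96 ± 0.29 lower (limma adjusted p = 0.015, in a comparison that called 18.4% lower). Both calls rested on syngeneic replicate 2: without it the differences were -0.73 and -0.66, with limma adjusted p of 0.061 and 0.062. The day 14 call was also lost without day 14 replicate 1, at -0.81 with a limma adjusted p of 0.0678. Day 5 allografts (-0.35, adjusted p = 0.41) and day 100 (-0.29, adjusted p = 0.45) did not pass in limma, where 25.2% and 31.1% of miRNAs were called.

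Between day 14 and day 8 miR-193 differed by 0.06 ± 0.29 (SE), with a 95% interval from -0.55 to 0.68 and a limma adjusted p of 0.92. MiR-365 differed by 0.79 in the same arrays. MiR-193 on day 14 was 0.67 ± 0.29 (SE) below day 100 (limma adjusted p = 0.066). It was 0.61 ± 0.29 below day 5 allografts (limma adjusted p = 0.17). Neither passed, though the arrays did not overlap, as in that direction for 25.2% and 22.3% of miRNAs. The difference from day 100 passed in some alternatives, among them without syngeneic replicate 2 (limma adjusted p = 0.034). Day 14 shared no slide with either group. The difference of the 2 miRNAs within each array is unchanged by a scaling that uses 1 factor per array, though not by quantile normalization. By it, miR-365 stood 0.83 ± 0.21 (SD, n = 3) below miR-193 on day 8 and 1.68 ± 0.27 below it on day 14, without overlap. In the syngeneic and day 5 allografts it stood 1.88 ± 1.04 and 1.87 ± 0.47 below. On day 100 it stood 1.19 ± 0.37 below, which overlapped both day 8 and day 14. Since days 8 and 14 chose miR-365, this ratio describes the choice and is no separate evidence. Across the 15 arrays their log2 scaled signals had a Pearson r of 0.15 and a Spearman rho of 0.33, given as a description.

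Other miRNAs followed miR-365 far more closely. The 5 most alike of 102, by Pearson r of the log2 scaled signals over the 15 arrays, were let-7c, let-7b, miR-30c, miR-26b and let-7a. The let-7 family is known for holding back growth and for its rise as cells mature, and the miR-30 and miR-26 families are broadly expressed. Their mature strands are shown because 3 of the 5 share 1 seed, which is not that of miR-365.
mmu-let-7c-5p: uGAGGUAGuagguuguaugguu
mmu-let-7b-5p: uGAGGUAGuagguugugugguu
mmu-let-7a-5p: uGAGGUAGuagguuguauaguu
mmu-miR-30c-5p: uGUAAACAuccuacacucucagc
mmu-miR-26b-5p: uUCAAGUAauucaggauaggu
The 3 let-7 strands are close to each other over their whole length, and whether their probes share signal was not tested.

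Let-7c was the most alike, with r = 0.91 and rho = 0.93. The arrays share slides and scaling, and r was 0.98 over the 8 arrays of slide 1 and 0.92 over the 7 arrays of slide 2. Without the 2 arrays whose miR-365 lay farthest from the median, which were day 14 replicates 1 and 3, it was 0.90. After the group means were taken out it was 0.82 over the pooled deviations, but not every group followed: on day 100 the array with the lowest miR-365 had the highest let-7c. Let-7b had r = 0.91, miR-30c 0.89, miR-26b 0.88 and let-7a 0.86.

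Let-7c itself read -0.96, -0.81 and -0.84 on day 14, -0.36, -0.33 and -0.45 on day 8, and 0.03, 0.33 and 0.31 on day 100. The syngeneic grafts gave -0.36, -0.81 and -0.14, and the day 5 allografts gave -0.98, -0.48 and -0.74. As for miR-365, syngeneic replicate 2 was the low array of its group, and the day 5 allografts overlapped the syngeneic grafts. Within each array miR-365 stood 2.06 ± 0.05 (SD, n = 3) below let-7c on day 8 and 2.35 ± 0.05 below it on day 14, without overlap, a difference of 0.30 between the days that chose miR-365. Day 100 (2.29 ± 0.25 below) overlapped day 14.

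MiR-26b read -1.42, -1.25 and -1.70 on day 14 and -0.75, -0.79 and -0.77 on day 8. The day 5 allografts were at -0.94, -0.63 and -0.95 and overlapped the syngeneic grafts at -0.82, -0.97 and -0.37. The let-7 seed was looked up after these values were seen. Of 9 tested miRNAs with it, 5 had r above 0.7 with miR-365, and the range was wide, from -0.35 for let-7i to 0.91 for let-7c. Over all 102 miRNAs the median r was -0.12, and 13 had r above 0.7.

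**Figure D4:**
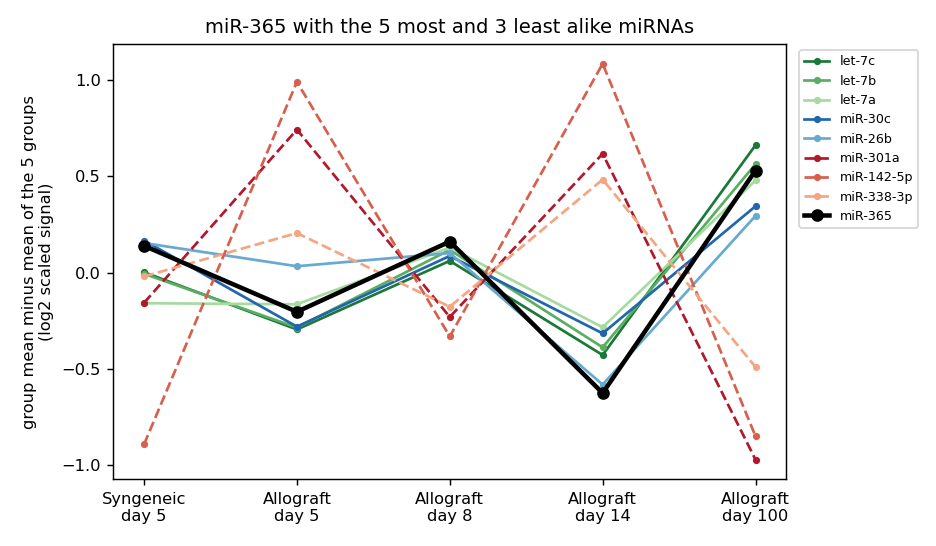
Group means of miR-365 (black) with the 5 most alike (solid) and 3 least alike (dashed) of 102 tested miRNAs, each as the log2 scaled signal minus its own mean over the 5 groups. The solid lines are lowest on day 14 and highest on day 100, as miR-365 is. However, only for miR-26b among them were the day 14 arrays apart from the day 5 allografts. The dashed lines are higher on day 14 than on days 8 and 100, although miR-301a is highest in day 5 allografts and miR-142-5p lowest in the syngeneic grafts.

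At the other end were miR-301a (r = -0.83), miR-142-5p (r = -0.82), which comes from the hairpin that blood cells use for miR-142, and miR-338-3p (r = -0.78). These are dim miRNAs, detected on 11, 13 and 11 of 15 arrays, and undetected arrays sit at or near the floor of -5.21. MiR-142-5p read -2.47, -2.28 and -2.33 on day 14 and -3.76, -3.86 and -3.72 on day 8. It read -2.82, -2.94 and -1.60 in the day 5 allografts. Between day 14 and day 8 this leukocyte marker differed by 1.42 ± 0.46 (SE), which did not pass (limma adjusted p = 0.091).

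Markers of the cells in the graft moved over the same days, and their part in the miR-365 levels was not tested. In bulk tissue, fewer cells of a type and less RNA per cell cannot be told apart. The summed scaled signal of the 6 hepatocyte markers on the array was 13.5 to 17.4 on day 14, against 23.3 to 25.1 on day 8, 23.6 to 28.1 on day 100, 22.4 to 26.5 in day 5 allografts and 30.8 to 36.6 in the syngeneic grafts. Day 14 was therefore the lowest for this hepatocyte sum, as it was for miR-365, but the syngeneic grafts were the highest, which miR-365 was not. The sum is mostly its brightest member, miR-122, with log2 means of 3.71 on day 14 and 4.76 in the syngeneic grafts. Of 8 leukocyte markers, 1 of which was detected on no array, the sum was 3.32 to 4.51 on day 14, 2.49 to 2.90 on day 8, 3.26 to 8.41 in day 5 allografts, 1.33 to 1.72 on day 100 and 0.806 to 1.87 in the syngeneic grafts. Day 14 and day 5 allografts, the groups with the lowest miR-365 means, had the highest leukocyte sums. The sum leans on its brightest member, miR-142-3p, with a log2 mean of 1.70 in day 5 allografts and 0.37 on day 8. MiR-142-5p was also higher in day 5 allografts than on day 8. MiR-223 (-0.75 and -0.62) and the remaining tested markers, outside the miR-142 hairpin, had higher means on day 8. That order was thus not shared across the list.

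The 3 erythroid markers summed to 1.84 to 2.49 on day 14, 1.59 to 1.64 on day 8 and 0.712 to 1.47 on day 100. They were at 1.12 to 2.02 in day 5 allografts and 0.624 to 1.24 in the syngeneic grafts. The 5 stromal and endothelial markers on the array, 2 of them detected nowhere, stayed between 0.878 and 1.22 in all 5 groups. No defining marker was at 0: miR-122, miR-142-3p and miR-223 were above the floor on all 15 arrays, so the grafts held both hepatocyte and leukocyte signal throughout.

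MiR-122, the defining hepatocyte miRNA, was 1.05 ± 0.15 (SE) lower on day 14 than in the syngeneic grafts (limma adjusted p = 7.9e-05, in a comparison that called 18.4% lower). Against day 8 it was 0.63 ± 0.15 lower on day 14, which passed narrowly (limma adjusted p = 0.0475, in a comparison that called 5.83%). Of 5 tested hepatocyte markers, 4 were called lower on day 14 than on day 8, with a median difference of -0.59 against -0.07 over all 103. That count fell to 0 under 6 other settings, among them median scaling and no scaling, and also when replicate 1 or 2 of the day 5 allografts, replicate 1 or 3 of day 14, or any 1 array of day 8 or day 100 was left out. None of the 6 tested leukocyte markers was called between those days, with a median difference of 0.53. However, 2 had an unadjusted p under 0.05, in limma and likewise in the methods' t-test, and 2 were called with only the groups compared. The count stayed at 0 in 11 of 20 alternatives and in 12 of 15 runs that left out 1 array, and otherwise reached at most 2.

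Set against miR-122 within each array, the day 14 low of miR-365 was much smaller. MiR-365 stood 6.93 ± 0.19 (SD, n = 3) below miR-122 on day 14 and 6.77 ± 0.04 below it on day 8, and the arrays overlapped. In the day 5 allografts it stood 7.13 ± 0.18 below, in the syngeneic grafts 7.21 ± 0.46 and on day 100 6.47 ± 0.27. These are differences between 2 probe sets, so their size says nothing of relative abundance. Their change between groups does not depend on a scaling that uses 1 factor per array. By this measure day 14 no longer had the lowest group mean, although its arrays overlapped those of every other group. Day 100 kept the highest mean, but its arrays overlapped those of day 8 and day 14. Across the 15 arrays miR-365 had r = 0.65 with miR-122 (0.70 within slide 1 and 0.39 within slide 2), given as a description. With the log2 leukocyte sum, which leans on miR-142-3p, miR-365 had r = -0.72 (-0.67 and -0.88). With miR-142-3p alone r was -0.69, and with miR-223 alone it was -0.58 (-0.39 and -0.96), also as descriptions. Its r with the log2 of the array's own scale was -0.03.

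**Figure D5:**
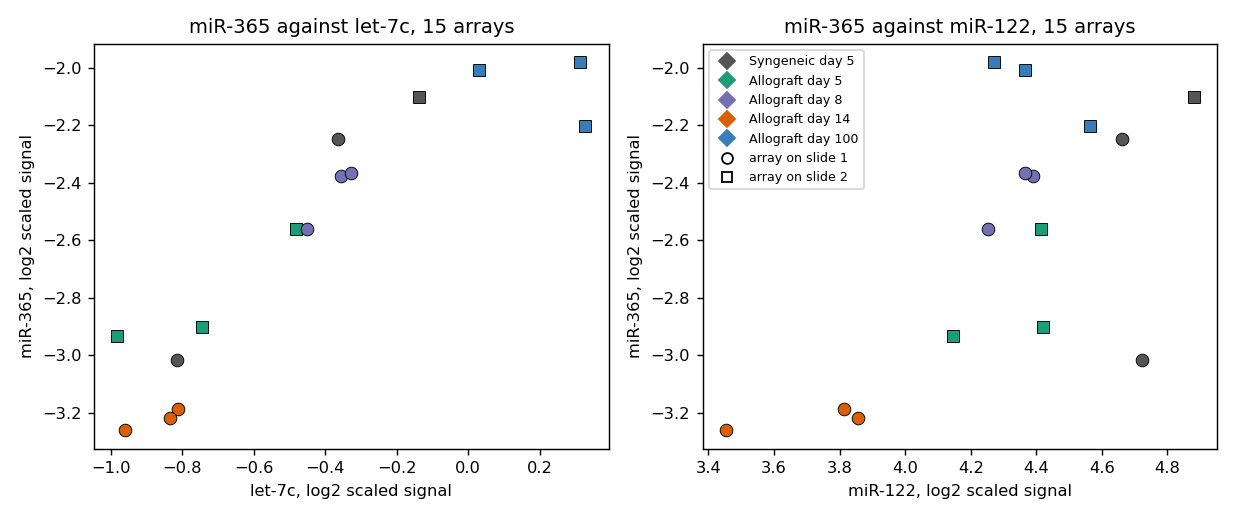
Log2 scaled signal of miR-365 on each of the 15 arrays against that of let-7c (left, r = 0.91) and of miR-122 (right, r = 0.65), with colour for the group and shape for the slide. The arrays lie along 1 band for let-7c, while for miR-122 the day 14 arrays sit low on both axes and syngeneic replicate 2 sits low for miR-365 alone among the arrays with high miR-122.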

How the data were processed

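Total RNA of 15 mouse liver grafts was hybridized in 1 color to Agilent miRNA arrays. The authors deposited spot intensity values from Feature Extraction 9.5.1.1 (per the file headers), with background subtracted, on a linear scale and not normalized between arrays. Genome build and probe sequences are not given in the sources used here, and the series' table of processed values was not used here.

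For each probe the mean intensity of its spots was taken, leaving out control and outlier spots, and a miRNA's 1 to 4 probes were summed. Detection required 0.5 or more of the spots of at least 1 probe to be well above background. Arrays were scaled by the 75th percentile of the 52 miRNAs that every array detected. Scaled values below 0.0270 were set to it, which is -5.21 after the log2 step. Tests covered 103 miRNAs that all 3 arrays of some group detected. The number of arrays limits the precision.

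A limma 3.58.1 fit (R 4.3.3) with a mean for each of the 5 groups gave all differences, adjusted by Benjamini-Hochberg within a comparison, with a threshold of 0.05. The fit was tried on simulated data without a slide effect, against a pass limit that was lowered after a first run, so that trial is not used as support. Tables used Python 3.11.15, numpy 2.4.6 and pandas 2.3.3. MiR-365, the marker lists and the rules were chosen with earlier results of these data known. Differences of miR-365 that involve days 8, 14 or 100 carry no test, since those days chose it. The miRNAs named were miR-365, the miR-193 family, the 5 highest and 3 lowest in Pearson r with miR-365 and the defining markers miR-122, miR-142-3p and miR-223. Differences within an array, and the let-7 members beyond these, were added after the values were seen. The arrays of a group are separate mice per the labels. Alternatives were other scalings, probe summaries and filters, normexp on the median spot signals (offset 50), a floor 4 times lower, trend and robust limma, the methods' t-test, slide or replicate number as a block, and leaving out each array.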

Additional observations from a re-analysis of the deposited data

Results flagged for a closer look

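Against the mean of the syngeneic grafts, all 3 day 100 allografts were higher in miR-365, and all 3 day 5 and all 3 day 14 allografts were lower. Day 100 was 0.74 above day 5 allografts and 1.16 above day 14 on the log2 scale. These differences between days were not tested, since day 14 and day 100 chose miR-365. The syngeneic mean holds replicate 2, which lay at -3.02 against -2.25 and -2.10. Without that replicate the syngeneic mean was -2.18, and day 100 replicate 2, at -2.20, lay below it. The arrays of the day 5 and day 100 allografts also overlapped the syngeneic arrays.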

How the results depend on the processing

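The difference of miR-365 between day 14 and day 8 stayed negative under all alternatives run. It was -0.88 with quantile normalization, -0.64 with no scaling, -0.56 with median scaling and -0.44 with the normexp correction, and otherwise within the spread of its groups. Between day 14 and day 100 it was -1.35 with the 75th percentile over all miRNAs, -1.32 with quantile normalization, -1.25 with the brightest probe alone, -1.05 with median scaling, -0.94 with no scaling, -0.71 with normexp and -0.63 with slide as a block. Between day 14 and day 5 allografts it was -0.60 with quantile normalization and with the brightest probe, -0.25 with normexp, -0.19 with no scaling and 0.11 with slide as a block. With no scaling, the differences from the syngeneic grafts were 0.20 for the day 5 allografts (adjusted p = 0.72), 0.65 for day 8, 0.0088 for day 14 and 0.95 for day 100. The cause of these moves was not tested. Over all alternatives the adjusted p of the day 5 comparison ran from 0.019 to 0.72, and leaving out 1 array moved its difference between -0.62 and -0.17. MiR-365 fell below the filter of a mean scaled signal of at least 1.5 times the mean, so that alternative gave no value for it.

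The miR-193 calls were lost with no scaling (-0.40 on day 8 and -0.19 on day 14), within slide 1 (-0.99 and -0.93), and, at unchanged differences of -1.03 and -0.96, with no filter on detection, with only the groups compared and with the methods' t-test, adjusted or not. Leaving out 1 array gave -1.36 to -0.73 on day 8 and -1.29 to -0.66 on day 14. The uncalled miR-193 differences from the syngeneic grafts turned to 0.19 on day 5 and 0.26 on day 100 with no scaling, and to 0.0035 on day 100 without syngeneic replicate 2, and leaving out 1 array gave -0.093 to 0.21 between day 14 and day 8. Of the 5 most alike miRNAs, 2 remained among the 5 with quantile normalization and 2 with normexp.

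Replicate numbers did not pair the samples: 9 of 30 same-numbered pairs had correlated deviations above 0.1 (range -0.65 to 0.45), and 4 of 15 arrays correlated best with their own number. With the replicate block the day 5 difference stayed at -0.34 (adjusted p = 0.28), the miR-193 differences at -1.03 and -0.96, and no call on either miRNA changed.

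In numbers of miRNAs called, the day 5 comparison with the syngeneic grafts gave 26, against 15 among those detected on all 15 arrays, 14 with the mean signal filter, 10 with the percentile over all miRNAs, 5 each with normexp, no filter, slide as a block and within slide 2, 2 with the adjusted t-test and 1 with only the groups compared. Day 8 gave 42 and 20 to 48 elsewhere, and day 14 gave 47 and 21 to 55.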
